A study of Mus musculus with 6 samples.

Results

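The cytosolic ribosomal protein genes were taken as the probe sets whose annotation gives exactly 1 gene symbol and whose symbol is that of a large-subunit protein (Rpl), a small-subunit protein (Rps), an acidic stalk protein (Rplp0, Rplp1 or Rplp2) or Rpsa. This gave 105 probe sets for 49 genes, out of 18193 genes with a single symbol on the array, and each gene was represented by its probe set of highest mean over the 6 arrays. Of the 49 genes, 26 belong to the 60S subunit, the stalk included, and 23 to the 40S subunit. A filter on dim probe sets (mean log2 value above the median of all probe sets) was passed by 46 members, 24 of the 60S and 22 of the 40S subunit, among 14678 tested genes. A further 28 ribosomal protein genes, 23 of the 60S and 5 of the 40S subunit, were found only on probe sets that also name other genes and were not analysed here; Rplp1, Rpl3, Rpl5 and Rps12 are among them.

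Total RNA of isolated hippocampal cells, described as DGCs (dentate granule cells, from what is known of the study), was hybridised to 6 Affymetrix mouse whole-genome expression arrays. The 3 arrays of 2 transgenic mice that overexpress HuD, the neuronal RNA-binding protein encoded by Elavl4, were compared with 3 arrays of 2 control mice. Mouse 1 of each group had 1 array and mouse 2 of each group had 2, called array 1 and array 2 here in the order deposited, which only names them. The arrays of transgenic mouse 1, of control mouse 1 and array 1 of transgenic mouse 2 have re-LCM in their titles, a tag that is not explained there. Both arrays given as control mouse 2 have different control numbers in their titles, and it is thus uncertain that they share a mouse. The labels used here give no age, sex or strain, no promoter for the transgene and no founder line; from what is known of the study, a Camk2a promoter drives the transgene in forebrain neurons.

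Cytosolic ribosomes are built in the nucleolus from ribosomal RNAs and a set of proteins made in near-equal numbers. The small subunit decodes the mRNA and the large subunit joins amino acids, with a flexible stalk of P proteins that engages the elongation factors. The mRNAs of these proteins begin, in mammals, with a run of pyrimidines (the TOP motif) through which the mTOR kinase and the RNA-binding protein Larp1 set their translation, so much of the control of their protein output is known to act on translation. In neurons, ribosomes and ribosomal protein mRNAs are found in dendrites and axons as well as in the cell body. HuD binds AU-rich and U-rich stretches of neuronal mRNAs and is known to stabilise them.

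The pyrimidine run is a known feature of the mRNAs of this family, whose members were chosen here by symbol, so the start regions of 10 members are shown. Each is a stretch of 30 bases on GRCm38.p6 from RefSeq, from 15 bases before the annotated transcription start to 15 bases from the start on, written 5′ to 3′ on the gene's strand, with the longest unbroken run of C or T in capitals. Rpl7a (chr2:26910792-26910821, plus strand), Rpl27a (chr7:109519180-109519209, plus), Rpl35 (chr2:39005117-39005146, minus) and Rpl14 (chr9:120571502-120571531, plus) have the longest runs among the members named here. Rps18 (chr17:33955651-33955680, minus), Rplp2 (chr7:141447636-141447665, plus), Rps6 (chr4:86857353-86857382, minus) and Rpl38 (chr11:114668565-114668594, plus) have shorter ones. Rps4x (chrX:102189377-102189406, minus) and the paralog Rpl7l1 (chr17:46782642-46782671, minus) are shown as members without a run of 8.
Rpl7a: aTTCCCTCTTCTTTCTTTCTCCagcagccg
Rpl27a: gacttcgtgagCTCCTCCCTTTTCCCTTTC
Rpl35: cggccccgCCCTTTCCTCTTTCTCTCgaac
Rpl14: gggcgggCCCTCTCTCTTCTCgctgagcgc
Rps18: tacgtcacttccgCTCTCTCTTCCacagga
Rplp2: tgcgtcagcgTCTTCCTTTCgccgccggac
Rps6: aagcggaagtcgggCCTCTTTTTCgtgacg
Rpl38: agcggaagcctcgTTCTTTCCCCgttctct
Rps4x: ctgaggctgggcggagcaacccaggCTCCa
Rpl7l1: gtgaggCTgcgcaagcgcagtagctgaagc

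The runs had 21 bases in Rpl7a, 19 in Rpl27a, 18 in Rpl35, 14 in Rpl14, 11 in Rps18 and 10 each in Rplp2, Rps6 and Rpl38, against 4 in Rps4x and 2 in Rpl7l1. Of the 49 members, 43 matched the RefSeq promoter table. A run of at least 8 C or T bases lay in the 30-base window of 19 of these 43 genes (44.2%), compared with 3760 of 27025 genes in the whole table (13.9%). A run counted wherever it lay in the window, so some end before the annotated start, as in Rpl4 (11 bases, from 15 before the start). Having or lacking a run is therefore not the same as having or lacking a TOP motif, and the annotated starts were not checked. The motif CCGGAAG, the core bound by ETS-family factors, was searched on both strands of the 300 bases around the start (250 before and 50 after) and was found for 21 of the 43 members (48.8%), compared with 9.93% of all genes. Its reverse complement starts with pyrimidines and can overlap a run of C or T, as it does in Rps7. TATAAA, the core of a TATA box, was found on either strand for 6 of the 43 members (14.0%), compared with 15.7% of all genes. Rpl7, Rpl8, Rps14, Rps20, Rps29 and Rps4l had no matching entry.

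Values are the authors' linear intensities, scaled to a common trimmed mean on every array. The granule cell labels were checked against defining markers: Dsp lay between 6366 and 9391, Calb1 between 6736 and 7444, and Prox1, the transcription factor that defines the cell type, between 497 and 651 on the 6 arrays. The 3 probe sets of Elavl4 gave 35.8 to 93.3 on the transgenic and 40.6 to 122 on the control arrays. Its brightest probe set was lower by 0.33 on the log2 scale in the transgenic mice (SE 0.27, limma adjusted p = 0.999), so no higher Elavl4 signal was measured, and whether these probe sets cover the transgene's transcript was not tested. The group names therefore rest on the labels alone. Over mouse means, most markers of other non-pyramidal cells were lower in the transgenic group, though not against every control array. This held for 9 of 9 tested oligodendrocyte markers (12 listed, median -0.57) and 9 of 10 astrocyte markers (12 listed, median -0.28). It also held for 7 of 7 microglial markers (12 listed, median -0.33), 5 of 7 vascular markers (11 listed, median -0.28) and 8 of 10 interneuron markers (11 listed, median -0.39). The 14 tested granule cell markers had a median of -0.06 and the 9 pyramidal cell markers one of 0.07. None of these genes passed the test. The oligodendrocyte list averaged between -0.46 and -0.08 on the transgenic arrays (log2 minus the 6-array mean of each gene), against 0.82, 0.06 and -0.24 on the control arrays, where control mouse 1 was highest. The control arrays averaged 0.44, 0.01 and -0.10 for astrocyte and 0.51, 0.21 and -0.28 for interneuron markers. For microglial markers they averaged 0.30, 0.20 and -0.07, and for vascular markers 0.39, 0.39 and -0.33. Array 2 of control mouse 2 thus lay among or below the transgenic arrays in each of these lists.

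The first comparison asked whether the mRNAs of ribosomal proteins differ between HuD-overexpressing and control granule cells. No ribosomal protein gene passed the test: 0 of 46 had an adjusted p under 0.05, the same share as among all tested genes (0 percent of 14678), in limma's moderated test over 2 mice per group. At an unadjusted p under 0.05 there were 0 members as well, where 632 of all tested genes (4.31%) were under that value. In 0 of 46 members did the 3 transgenic arrays lie entirely above or below the 3 control arrays, compared with 1185 of all genes (8.07%). The transgenic mean was higher for 18 members and lower for 28. The lower share was 60.9%, beside 49.5% over all tested genes. The median log2 difference, transgenic minus control, was -0.018 over the members and 0.003 over all tested genes. The members' mean was 0.008, of the opposite sign to their median. In RNA of many cells, a different number of cells of a type and a different amount of RNA per cell cannot be told apart.

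The members' intervals were narrower than those of all tested genes, and their differences were small. They ran from -0.21 for Rps19 to 0.35 for Rpl14, every one lay within 2 of its standard errors of 0, and 40 lay within 1. The median size of the difference was 0.061, compared with 0.153 over all tested genes, and the median range over the 6 arrays was 0.50, compared with 0.69. For 44 of 46 members (95.7%) the 95% interval lay wholly within 1 log2 unit of 0, that is, between a halving and a doubling, which held for 77.0% of all tested genes. The 2 exceptions were Rps27 and Rpl14. The intervals rest on mouse means, so the gap between the 2 arrays of mouse 2 does not enter them. Rps4l, with a range of 2.28 over the 6 arrays, is thus among the 44. These comparisons with all tested genes were not matched for brightness: 7 members and 9303 other genes had a mean log2 intensity under 8. Intervals also lay within 1 log2 unit for 97.4% of 76 mitochondrial ribosomal protein genes and 97.4% of 39 initiation factors. The share was 100% of 21 other TOP mRNAs and ribosome partners, 87.7% of 73 ribosome biogenesis genes and 80% of 10 elongation factors. The median interval of the members, not adjusted for the number of genes, reached 0.42 to each side, so smaller differences than that were not detectable with 2 mice per group. Larger ones were not called after adjustment either: over all tested genes the differences ran from -1.99 to 2.19 and 0 were called. Both subunits gave similar values: 9 of 24 genes of the 60S subunit were higher (median -0.014) and 9 of 22 of the 40S subunit (median -0.027).

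**Figure D1:**
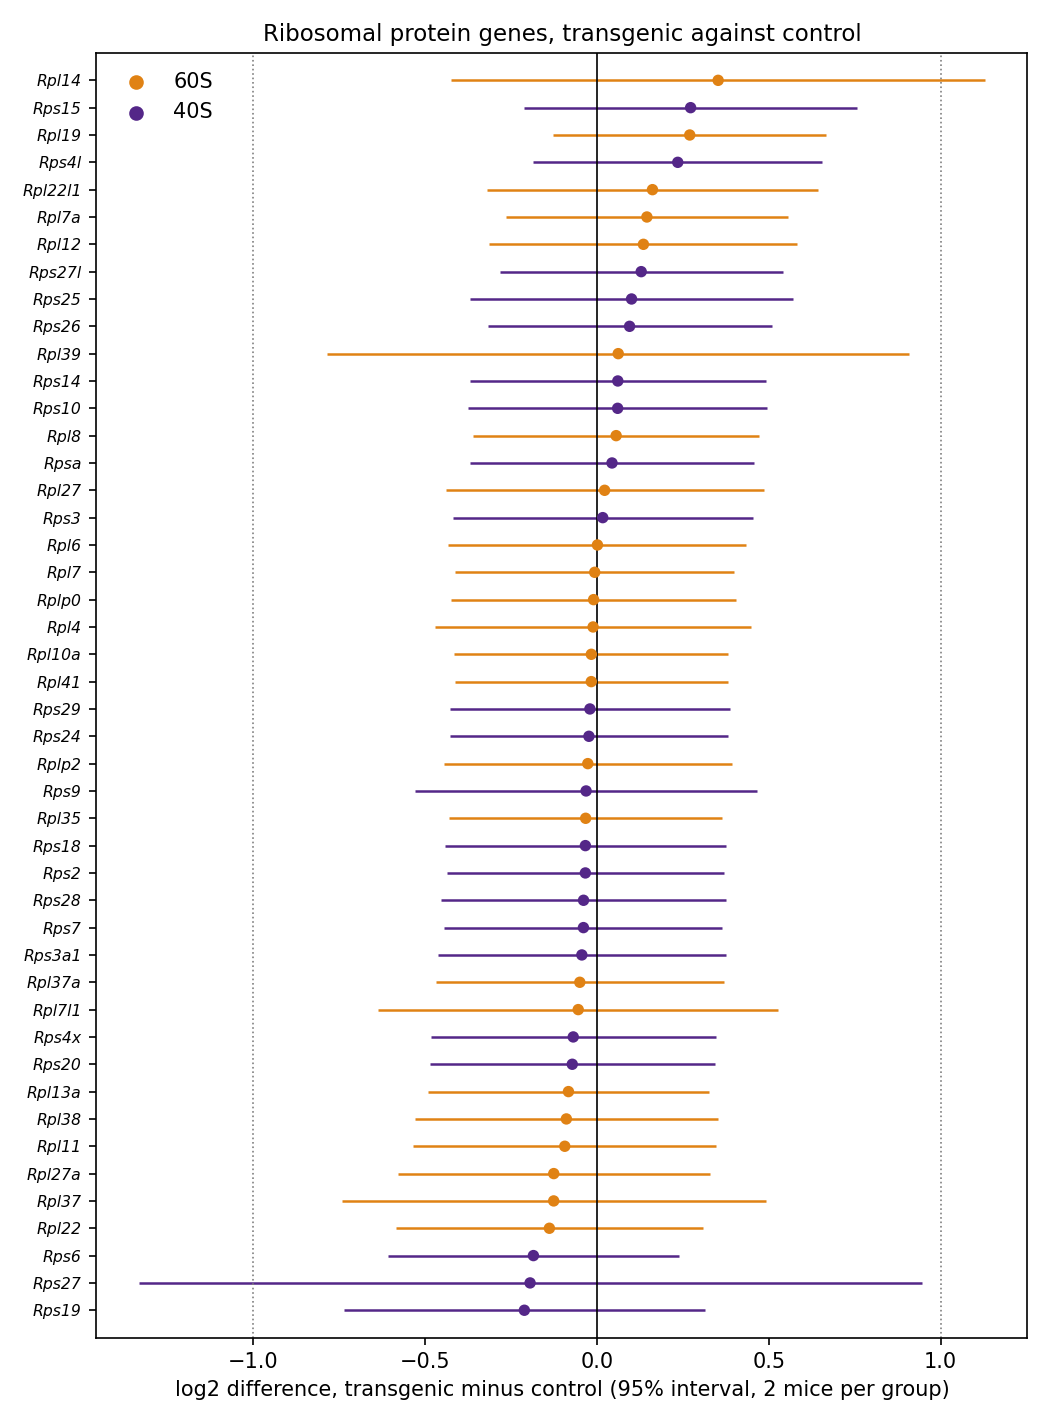
Log2 difference, transgenic minus control (x axis), of the 46 tested ribosomal protein genes (rows), with 95% intervals from limma over 2 mice per group; orange marks the 60S and purple the 40S subunit, and dotted lines stand at 1 log2 unit to each side. Every interval includes 0, and only those of Rps27 and Rpl14 reach past a dotted line.

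Of the large-subunit stalk, Rplp0, the protein that anchors the stalk to the ribosome, had 1168 on the array of transgenic mouse 1 and 1179 and 958 on arrays 1 and 2 of transgenic mouse 2, against 1150 on the array of control mouse 1 and 1440 and 830 on arrays 1 and 2 of control mouse 2. All further values are given in that order. The control arrays enclosed the transgenic ones, and the difference was -0.01 (SE 0.16, limma adjusted p = 0.999). Rplp2, which with its partner P1 recruits the translation factors, had 4370, 5726 and 3761 in transgenic and 4368, 5412 and 4284 in control mice. Both mice numbered 1 were nearly equal, array 1 of mouse 2 was the highest in each group, and the difference was -0.03 (SE 0.16).

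Rpl19, an internal 60S protein that reaches the small subunit as a bridge, had the smallest p of all members. Its intensity was 1912, 2394 and 1650 in transgenic mice and 1618, 1896 and 1376 in control mice. The transgenic value was the higher at each position of this order, yet array 2 of transgenic mouse 2 lay below array 1 of control mouse 2, so the groups overlapped. The difference was 0.27 (SE 0.15, 95% interval -0.13 to 0.67, limma adjusted p = 0.999). The largest difference upwards was that of Rpl14, a 60S surface protein, with 184, 256 and 222 in transgenic and 129, 235 and 185 in control mice. Control mouse 1 was the lowest array, the rest overlapped, and the difference was 0.35 (SE 0.30, 95% interval -0.42 to 1.13). Rpl7a, whose start region holds the longest pyrimidine run printed above, had 2553, 2992 and 2353 in transgenic and 2457, 2560 and 1982 in control mice, a difference of 0.15 (SE 0.16). Its groups overlapped too.

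On the lower side of the large subunit, Rpl22, an RNA-binding 60S protein that is not needed for translation as such, had 1808, 2201 and 1876 in transgenic and 2247, 2194 and 1788 in control mice. Array 2 of control mouse 2 was the lowest of all, and the difference was -0.14 (SE 0.17). Rpl37 and Rpl27a followed at -0.13 each (SE 0.24 and 0.17). Rpl27a, whose mutation in mice gives a pigment and cerebellar phenotype, had 1082, 1342 and 1110 in transgenic and 1344, 1372 and 996 in control mice. Rpl11, which with Rpl5 can leave the ribosome and inhibit the p53 ligase Mdm2, lay at -0.09 (SE 0.17), and Rpl38, known in mice for its effect on the translation of Hox mRNAs, at -0.09 (SE 0.17). No group of arrays was separate from the other for any of them.

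Among the 40S proteins, Rpsa, which sits on the back of the subunit and is also known as the laminin receptor precursor, had 2891, 3473 and 2612 in transgenic and 3000, 3072 and 2427 in control mice. Its groups overlapped at a difference of 0.04 (SE 0.16). Rps15, which reaches the decoding centre with its tail, had 2028, 1876 and 1501 in transgenic and 1432, 2453 and 1081 in control mice. The control arrays held both the highest and the lowest value, and the difference of 0.27 (SE 0.18, limma adjusted p = 0.999) was smaller than their spread. Rps6, the substrate of S6 kinase whose phosphorylation is used as a marker of neuronal activity, had 309, 326 and 346 in transgenic and 384, 370 and 329 in control mice. Transgenic mouse 1 was lowest and control mouse 1 highest, array 2 of control mouse 2 lay among the transgenic values, and the difference was -0.18 (SE 0.16).

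Rps19, a 40S protein whose human gene is the one most often mutated in Diamond-Blackfan anaemia, had the largest difference downwards. It gave 1140, 1234 and 975 in transgenic mice and 1488, 1270 and 998 in control mice, a difference of -0.21 (SE 0.20, 95% interval -0.74 to 0.31, limma adjusted p = 0.999). Control mouse 1 stood above the other arrays, and array 2 of control mouse 2 was nearly as low as array 2 of transgenic mouse 2. Rps27 differed by -0.19 with the widest interval of all (-1.33 to 0.94). Its intensities were 39.7, 49.8 and 57.3 in transgenic and 35.05, 97.5 and 64.2 in control mice, with control arrays at both ends. Rps29, a small zinc-binding 40S protein, had 16478, 19805 and 12127 in transgenic and 15756, 19035 and 14595 in control mice, and here the difference was only -0.02 (SE 0.16).

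Several ribosomal proteins have paralogs that can take their place, and these are members here as well. Rpl22l1, the paralog of Rpl22 whose expression the Rpl22 protein is known to repress in mice, had 2291, 1926 and 1956 in transgenic and 2034, 1622 and 1882 in control mice. Transgenic mouse 1 was highest and array 1 of control mouse 2 lowest, and the difference was 0.16 (SE 0.18), beside -0.14 for Rpl22 itself; the difference between the 2 genes was not tested. Rps27l, a p53-inducible paralog of Rps27, had 220, 244 and 234 in transgenic and 204, 199 and 233 in control mice, a difference of 0.13 (SE 0.16). Array 2 of control mouse 2 lay among the transgenic values, and the other control arrays lay below all of them. Its 3 probe sets gave differences of 0.13 to 0.47, all of the same sign.

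Rps4x, the X-linked copy of the 40S protein S4, had 6515, 6365 and 5421 in transgenic and 6505, 7046 and 5942 in control mice, a difference of -0.07 (SE 0.16). Rps4l, a further Rps4 copy of the mouse, had 62.1, 122 and 25.1 in transgenic and 50.05, 60.3 and 40.6 in control mice. Its values on both arrays of transgenic mouse 2 were the highest and the lowest of the 6, and the average of 0.24 (SE 0.16) hid a gap of -2.28 between them. Rpl7l1, a relative of Rpl7 that works in ribosome assembly, had 257, 185 and 192 in transgenic and 248, 213 and 210 in control mice, a difference of -0.05 (SE 0.22). Mouse 1 was the highest array in each group. Rpl39l, which replaces Rpl39 in male germ cells, and Rpl3l, the striated-muscle form of Rpl3, did not pass the filter. Rpl39l was at or under the floor intensity of 10.1 on 5 arrays and at 43.3 on array 1 of transgenic mouse 2. Rpl3l lay between 1.203 and 30.3, with 2 arrays at the floor. The third member that did not pass was Rps16, a core 40S protein, whose only probe set here lay between 0.588 and 2.85 and thus at the floor on all 6 arrays; such values have no order.

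How far a probe set stands for its gene varied. Of the 49 genes 24 had more than 1 probe set, and 21 had more than 1 that passed the filter. In 11 of these 21 the probe sets disagreed in sign, Rps15 (-0.03 to 0.27) among them, and in 4 of the 11 they also lay over 0.5 apart: Rpl37a (-0.05 to 0.88), Rps9 (-0.23 to 0.61), Rpl7l1 (-0.52 to 0.07) and Rps10, a protein ubiquitinated on stalled ribosomes, (-0.04 to 0.50). The end of each of these ranges far from 0 came from a dim probe set. Its intensities over the 6 arrays were 6.18 to 72.0 for Rpl37a, 26.5 to 71.9 for Rps9, 58.7 to 113 for Rpl7l1 and 22.7 to 42.6 for Rps10. The groups did not overlap on those of Rps9 and Rpl7l1 and on the Rps27l probe set at 0.47, beside 8.07% of all tested genes. The smallest gap between probe sets of a gene was that of Rps14, at 0.059 and 0.061. Ribosomal protein genes have many processed pseudogenes in the mouse genome, and 40 of the 105 probe sets are of the _x_ class, which the manufacturer marks as liable to bind other transcripts. Of the 38 of that class that passed, 12 were higher and 26 lower in transgenic mice (median -0.03). The 28 of the _a_ class, for several transcripts of 1 gene, gave 12 higher and 16 lower (median -0.01), and the 23 without a class letter that passed gave 12 higher and 11 lower (median 0.04). The part of pseudogene transcripts in these values was not tested.

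The members varied together between arrays, but not along the groups. The mean over the 46 members of log2 intensity minus each gene's 6-array mean was -0.01, 0.16 and -0.14 on the transgenic arrays and -0.02, 0.16 and -0.15 on the control arrays. Array 1 of mouse 2 was thus high and array 2 low in each group, with mouse 1 between them. The number of members above their own 6-array mean was 22, 38 and 10 of 46 on the transgenic arrays and 24, 39 and 5 on the control arrays, while among all tested genes that share lay between 49.98% and 53.8% on each array. The highest array was array 1 of transgenic mouse 2 for 17 members and array 1 of control mouse 2 for 18. The lowest was array 2 of transgenic mouse 2 for 18 and array 2 of control mouse 2 for 15. Averaged per mouse, the levels were -0.013 and 0.011 in transgenic and -0.023 and 0.007 in control mice, a group difference of 0.008. The pooled SD was 0.019 between mice of a group and 0.154 between arrays of a group. The opposite deviations of the 2 arrays of mouse 2 cancelled in its mean, so the SD between mice does not take in that gap. These levels are a description and carry no test.

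**Figure D2:**
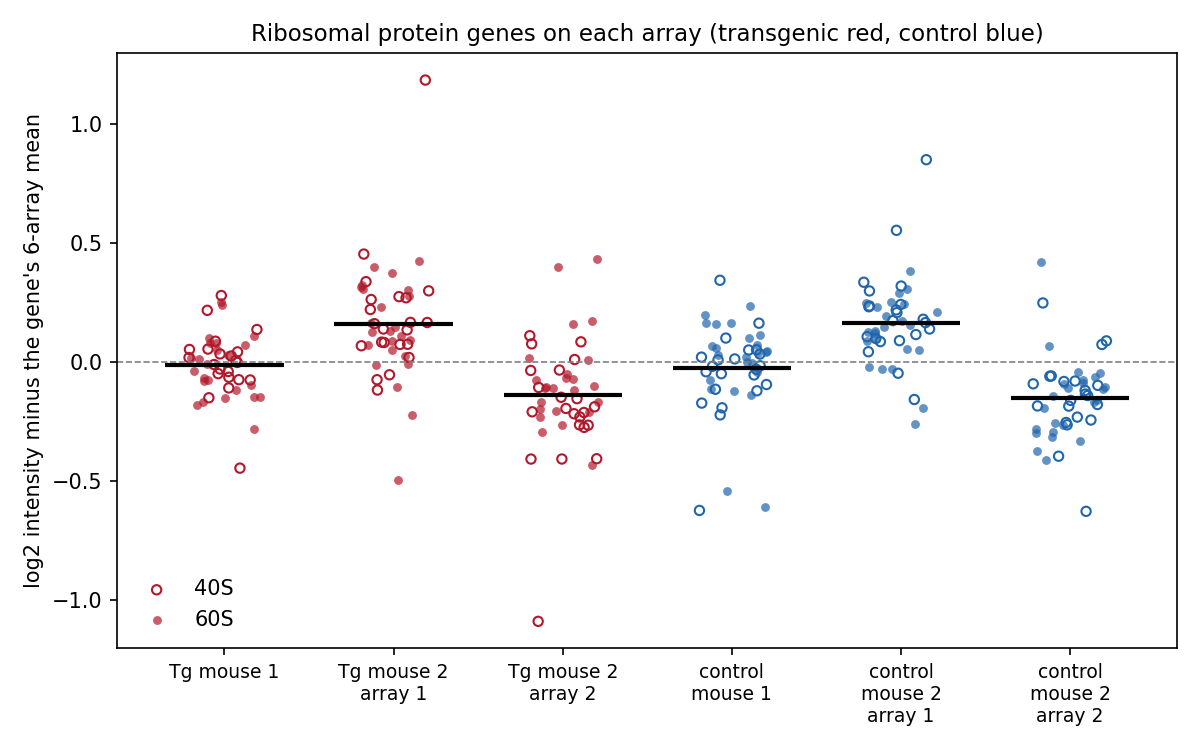
Log2 intensity of each tested ribosomal protein gene minus its mean over the 6 arrays (y axis), for each array (x axis), with filled points for the 60S and open points for the 40S subunit and a bar at the mean of the 46 genes. The bars stand at 0.16 on array 1 of mouse 2 in both groups and at -0.14 and -0.15 on array 2 of transgenic and of control mouse 2.

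Within transgenic mouse 2, 38 of 46 members (82.6%) were lower on array 2 than on array 1, compared with 50.8% of all tested genes. Within control mouse 2 the count was 42 of 46 (91.3%), compared with 50.2%. Both held for 37 members (80.4%), compared with 30.7% of all genes. Among genes with a mean log2 intensity over 12, both held for 93.3% of members and 79.1% of other genes. Between 11 and 12 the shares were 100% and 46.5%. The median gap over the members, array 2 minus array 1, was -0.28 in transgenic and -0.34 in control mouse 2, and over all tested genes it was -0.009 and -0.002. For 26 members, the lowest 2 of the 6 arrays were array 2 of transgenic and of control mouse 2. Both subunits took part: the median gap was -0.25 and -0.32 for the 60S and -0.30 and -0.35 for the 40S subunit, transgenic mouse first. Because the array numbers are only names, the direction within a mouse has no order in time or treatment; the values show that members moved together within each pair. In the transgenic pair array 1 carries the re-LCM tag and array 2 does not, whereas in the control pair neither carries it.

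**Figure D3:**
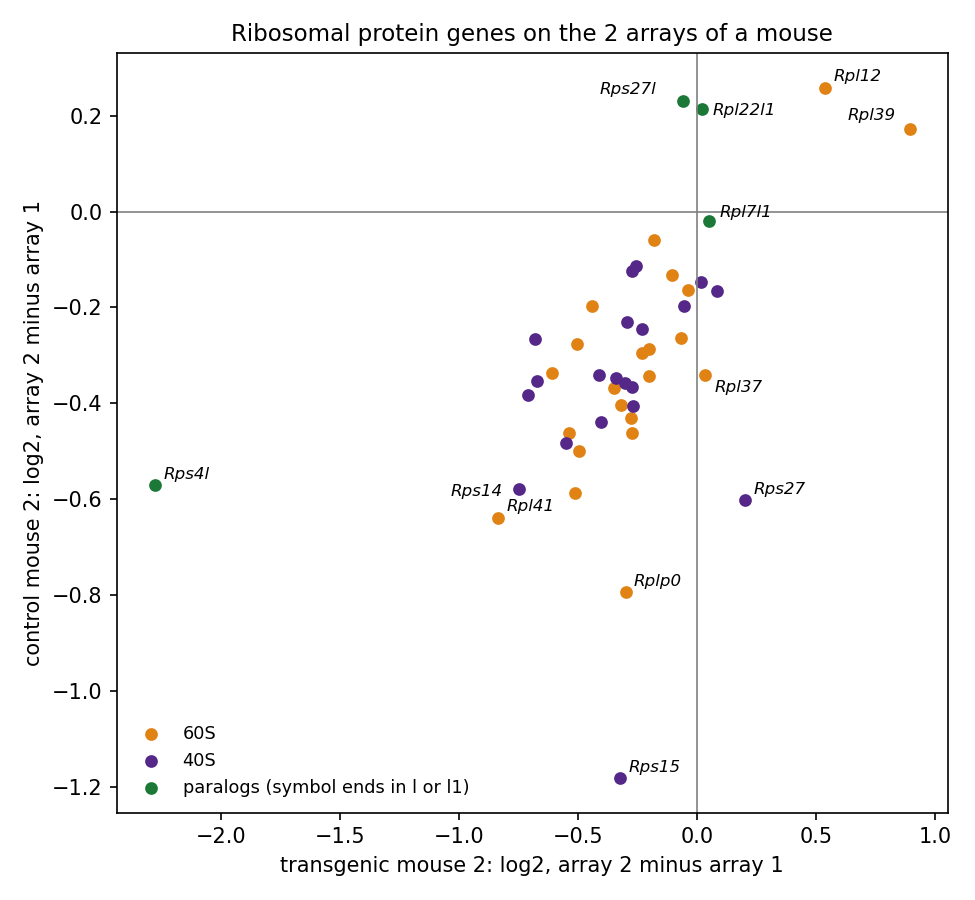
Array 2 minus array 1 (log2) of transgenic mouse 2 (x axis) and of control mouse 2 (y axis) for the 46 tested ribosomal protein genes, with paralogs in green. Most genes, 37 of 46, lie in the lower left, while Rpl22l1, Rpl12 and Rpl39 lie in the upper right.

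Named members show the size of this gap. Rps14, a 40S protein whose human gene is lost in a myelodysplastic syndrome, had 10497, 12486 and 7451 in transgenic and 9124, 12466 and 8342 in control mice. The gap between arrays of a mouse was -0.74 and -0.58, while the group difference was 0.06 (SE 0.16). Rpl41, the smallest ribosomal protein, had gaps of -0.84 and -0.64 at a group difference of -0.02. For Rps29 the gaps were -0.71 and -0.38, and for Rps15 they were -0.32 and -1.18. At the other end Rpl7 had the narrowest range, 0.17 over the 6 arrays, with 3712, 4036 and 3939 in transgenic and 3787, 4172 and 3725 in control mice. Rpl8, Rpl10a, Rps27l and Rps3a1 followed with ranges of 0.22, 0.26, 0.29 and 0.30. The widest ranges were those of Rps4l (2.28), Rps27 (1.48), Rps15 (1.18), Rpl14 (0.98) and Rpl39 (0.96).

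Of the 46 members 9 were not lower on array 2 in both mice. Rpl22l1 had 0.02 in transgenic and 0.21 in control mouse 2, Rps27l had -0.06 and 0.23, and Rpl7l1 had 0.05 and -0.02. These are paralogs, but the paralog Rps4l had the widest gap of all in transgenic mouse 2, with -2.28 and -0.57. Of the core proteins Rpl39, which lines the exit tunnel, had 0.89 and 0.17, and Rpl12, at the base of the stalk, had 0.54 and 0.26. In Rps27 (0.20 and -0.60), Rps6 (0.08 and -0.17), Rpl37 (0.03 and -0.34) and Rps9 (0.02 and -0.15) the gap was above 0 in transgenic mouse 2 only. Rpl39 gave 124, 90.3 and 168 in transgenic and 87.4, 151 and 170.5 in control mice. Its group difference was 0.06 (SE 0.32), and each group held both a value under 100 and one over 160.

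**Figure D4:**
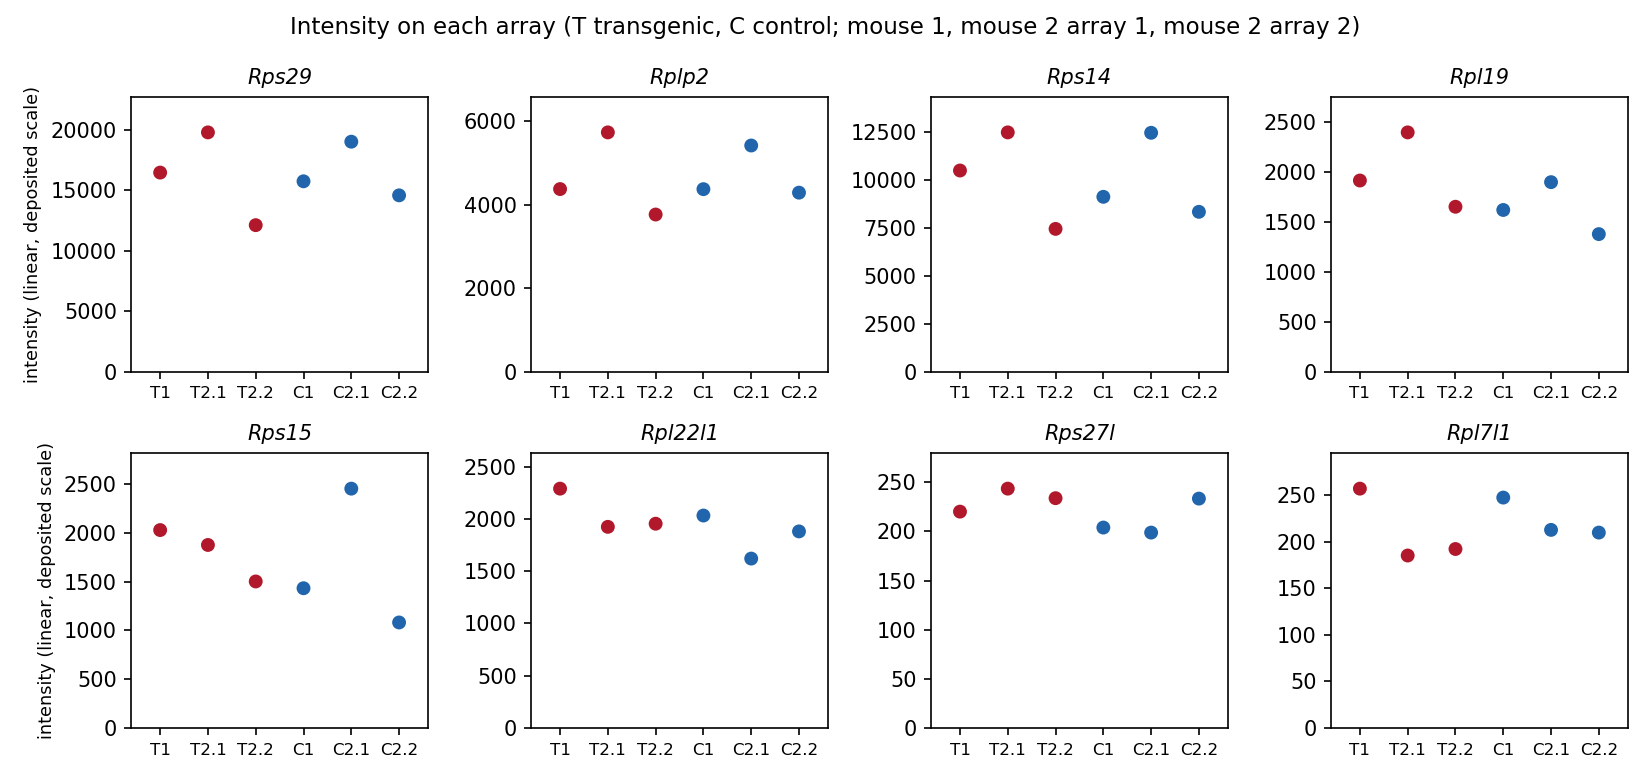
Linear intensity (y axis, from 0) on each array (x axis) for 8 members, with transgenic arrays (T) in red left of control arrays (C) in blue. Rps29, Rplp2, Rps14 and Rpl19 peak on array 1 of mouse 2 in both groups and Rps15 only in control mice, while Rpl22l1, Rps27l and Rpl7l1 do not follow that shape.

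Technical measures differed between the arrays as well. The 18 hybridisation-control probe sets, for transcripts added at a fixed amount, averaged 0.12, 0.16 and -0.26 on the transgenic and -0.23, 0.25 and -0.04 on the control arrays (log2 minus the 6-array mean), higher on array 1 than on array 2 of mouse 2 in each group. The 99.9th percentile of intensity was 13034, 13933 and 10756 on transgenic and 11470, 14004 and 11912 on control arrays, so array 1 of mouse 2 was the brightest at the top in each group. The 3′ to 5′ ratio of the Actb control probe sets, which goes up as RNA or labelled product shortens, was 14.8, 19.4 and 27.8 on transgenic and 17.4, 22.7 and 24.2 on control arrays, higher on array 2 than on array 1 of both mice. For Gapdh it was 7.06, 6.46 and 8.63 on transgenic and 6.92, 8.40 and 7.87 on control arrays, higher on array 2 in transgenic mouse 2 only. The part of these measures in the members' level was not tested.

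Brightness could be set beside the gap directly. Among genes with a mean log2 intensity over 12, the 15 members averaged -0.42 in transgenic and -0.34 in control mouse 2, and the 421 other genes -0.24 and -0.17. Between 11 and 12 the 11 members averaged -0.26 and -0.28 and the 505 other genes -0.07 in both mice. Between 10 and 11 the 10 members averaged -0.37 and -0.46 and the 877 other genes 0.01 and -0.02. The 7 members under 8 averaged -0.12 in each mouse, where other genes lay at -0.01 and 0.01. In transgenic mouse 2 that mean includes Rps4l at -2.28. The share lower on array 2 in both mice was 28.6% of these members and 27.7% of other genes under 8. The 2 members between 8 and 9 averaged 0.06 in transgenic and -0.25 in control mouse 2. After quantile normalization, which makes the intensity distributions of all arrays equal, the members' median gap was -0.18 in transgenic and -0.22 in control mouse 2.

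**Figure D5:**
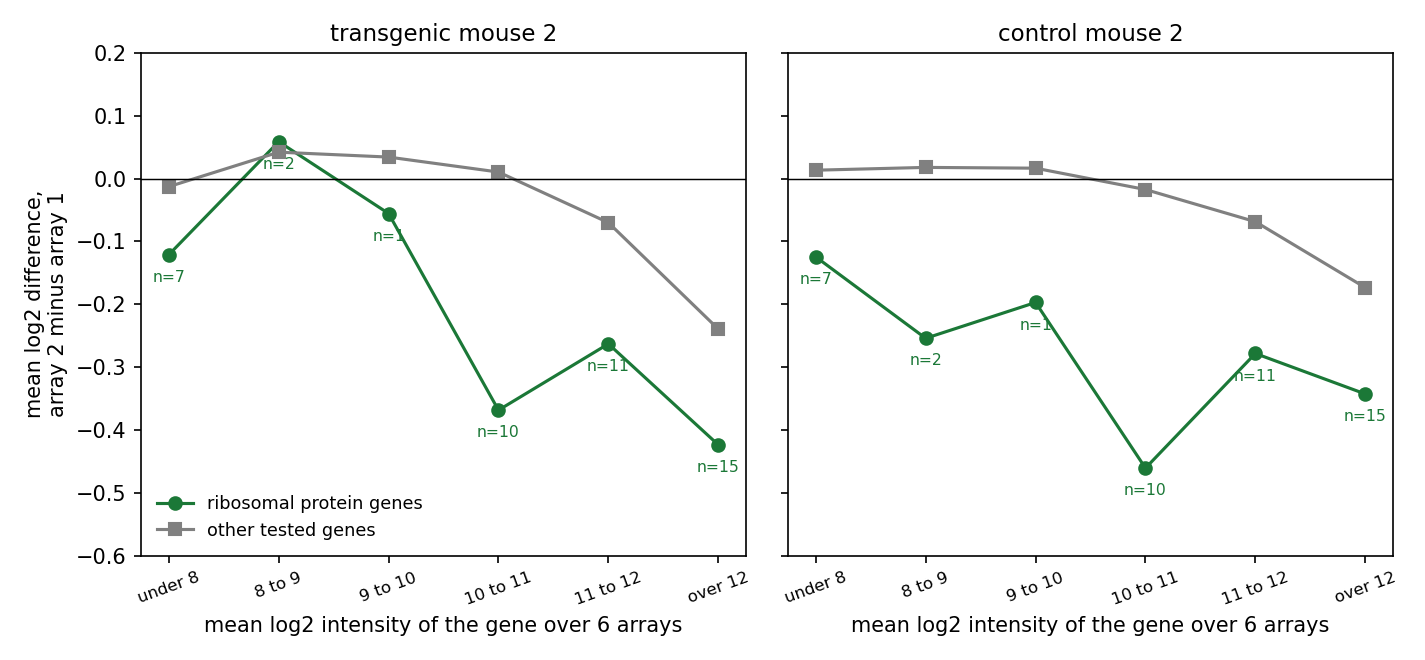
Mean gap between array 2 and array 1 (y axis, log2) by mean log2 intensity of the gene (x axis), for transgenic mouse 2 (left) and control mouse 2 (right), with members in green and other tested genes in grey. Above a log2 intensity of 10 the members lie below other genes of like brightness in both mice; the bins from 8 to 10 hold only 2 and 1 members.

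The re-LCM tag divided the arrays unevenly between the groups. Within the tagged arrays (2 transgenic, 1 control) the members' median difference was 0.066, within the untagged arrays (1 transgenic, 2 control) it was -0.133, and with the tag as a term beside the group it was -0.062, against -0.018 over mice. The sign of the members' median thus depended on which arrays entered. Leaving out array 2 of mouse 2 in both groups gave -0.021 and leaving out array 1 in both gave -0.014, so the median kept its size once the pair was treated alike. Without array 1 of transgenic mouse 2 alone it was -0.104, and without array 1 of control mouse 2 alone it was 0.071. Without control mouse 1, the array of highest oligodendrocyte marker level, it was -0.015. Within the tagged and within the untagged arrays no test was made; the count of members called was 0 in each of the other fits of this paragraph.

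Other genes of the translation machinery were described in the same way. Of 76 mitochondrial ribosomal protein genes, a set added after the data were seen and encoded apart from the cytosolic ones, 47 were higher and 29 lower in transgenic mice (median 0.06), with 0 called. Their median gap between array 2 and array 1 was -0.27 in transgenic and -0.19 in control mouse 2, so a gap of that direction was not limited to the cytosolic set. The 39 tested initiation factors had 17 higher and 22 lower (median -0.01) and gaps of -0.09 and -0.08. The 10 tested elongation factors had 6 higher and 4 lower (median 0.04); Eef1a1, the factor that brings aminoacyl-tRNA to the ribosome, had 10611, 8620 and 8211 in transgenic and 9611, 8998 and 8519 in control mice. No gene of these lists passed the test.

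The 21 tested genes of the other TOP mRNAs and ribosome partners had 10 higher and 11 lower (median -0.002), with gaps of -0.19 and -0.20. Fau, which encodes the 40S protein S30 fused to a ubiquitin-like protein, had 885, 946 and 680 in transgenic and 588, 939 and 481 in control mice. The groups overlapped through array 1 of control mouse 2, at a difference of 0.42 (SE 0.17, limma adjusted p = 0.999). Of 24 tested genes of the mTOR and S6 kinase pathway, which acts on TOP mRNAs and on Rps6, 14 were higher and 10 lower (median 0.03). Mtor lay at 0.04 (SE 0.18), Larp1 at 0.20 (SE 0.24) and Deptor, an inhibitor of mTOR, at -0.71 (SE 0.39). None passed the test.

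The 73 tested ribosome biogenesis genes divided into 37 higher and 36 lower (median 0.01). Riok2, a kinase of late 40S maturation, had 763, 830 and 655 in transgenic and 569, 521 and 524 in control mice. Its transgenic arrays all lay above the control arrays, at a difference of 0.46 (SE 0.16, limma adjusted p = 0.999). It was 1 of 73 genes of this list without overlap, beside 8.07% of all tested genes. Of 11 tested genes that import, escort or respond to free ribosomal proteins, 10 were higher and 1 lower (median 0.19). Over all tested genes 50.5% were higher (median 0.003). The 11 genes averaged 0.18, -0.10 and 0.16 on the transgenic arrays (log2 minus the 6-array mean). On the control arrays they averaged -0.01, -0.22 and -0.01, so the groups overlapped. Mdm2 lay at 0.33 (SE 0.21), the import receptor Tnpo1 at 0.28 (SE 0.16), and Heatr3, the yeast counterpart of which is Syo1, an escort of Rpl5 and Rpl11, at 0.40 (SE 0.17). Their median gaps between array 2 and array 1 were 0.29 in transgenic and 0.27 in control mouse 2, opposite in sign to those of the ribosomal proteins. None passed the test.

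The start regions were set beside these values. The 19 tested members with a pyrimidine run of at least 8 had a median group difference of -0.02 and median gaps between arrays of -0.27 in transgenic and -0.34 in control mouse 2, with 13 lower on array 2 in both mice. The 21 tested members with a matching entry and no such run had -0.03, -0.28 and -0.30, with 18 lower in both. Rpl7a, Rpl27a and Rpl35, whose long runs are printed above, had gaps of -0.35 and -0.37, -0.27 and -0.46, and -0.50 in both mice. Rps4x, without a run, had -0.23 and -0.25, and Rpl7l1 had 0.05 and -0.02. The medians of members with and without a run lay within 0.05 of each other for each quantity; the difference was not tested.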

How the data were processed

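The authors deposited 1 table of linear probe set intensities for 45101 probe sets on 6 arrays; which program summarised the probes, and how it treated background, was not stated in the labels or the table. Their 2% trimmed mean is 150 on each array. The deposited scaling was kept. The 64 control probe sets were set aside, log2 was taken after raising low values to a floor at the 25th percentile of all arrays together (10.1); probe sets with a mean above the median were tested, 1 per gene. Array values of a mouse were averaged, and transgenic and control mice were compared over all 14678 genes with lmFit and eBayes (limma 3.58.1, R 4.3.3; 2 residual and 2.70 prior degrees of freedom), with Benjamini-Hochberg adjustment at 0.05. The code was tested on simulated data.

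Symbols came from the platform annotation. Sequence windows were read with Python 3.11.15. Levels and gaps between arrays are descriptions. Genes were named by rule: stalk proteins and Rpsa, paralogs, the 6 largest differences each way, the 6 smallest p-values, the 5 widest and 5 narrowest ranges, members whose probe sets disagreed over 0.5 apart, and the 3 smallest p-values of each related list (Fau, Pfdn5, Deptor, Riok2, Nol6, Heatr3, Tnpo1, Mdm2 and Mrpl46 are such genes); Rps14, Rps29, Rpl41, Rpl11, Rpl38, Rpl12, Rpl35, Rps18, Rps16, Eef1a1, Mtor, Larp1, Pabpc1 and Ncl were chosen after their values were seen. The members and gene lists were chosen with earlier results of these data known. The sample descriptions tie arrays to mice, which the titles leave uncertain for control mouse 2. With the descriptions followed, p-values measure the spread between 2 mice per group. SEs and intervals rest on mouse means and do not take in the gap between the arrays of mouse 2, as in Rps4l. The number of arrays limits the precision. The means of same-numbered mice did not deviate together (correlation across genes 0.033), so the number was not used as a pairing. Averaging removes the gap between the arrays of mouse 2, so this check cannot show whether single arrays of the 2 groups correspond. Alternatives covered the floor, normalization, filter, choice of probe set, unit of replication, the re-LCM tag and leaving out arrays or mice.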

Additional observations from a re-analysis of the deposited data

Results flagged for a closer look

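The control probe sets for 18S ribosomal RNA, the RNA of the 40S subunit, stand outside the comparisons above. Of the readings of 3 probe sets on 3 transgenic arrays, 3 exceeded the control range. Only readings above that range were flagged. The probe set near the 5′ end read 2581, 2232 and 1672 on the transgenic arrays, against 1471 to 2086 on the control arrays. The middle probe set read 1683, 2136 and 1592 on the transgenic arrays, against 1530 to 2056 on the control arrays. The probe set near the 3′ end read 851, 1622 and 1616 on the transgenic and 1496, 1699 and 1583 on the control arrays, so transgenic mouse 1 was lowest there and highest at the 5′ end. Array 1 of transgenic mouse 2 was also high in ribosomal protein level, while array 1 of control mouse 2, equally high in that level, read 1585 near the 5′ end. These differences were not tested.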

How the results depend on the processing

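With 2 mice per group, differences under about 0.42 (log2) could not be resolved for a typical member, and dim probe sets depend on an unknown background correction. Of the 24 alternatives with a test, members called stayed at 0 in 24; all genes called stayed at 0 in 23 and came to 1 with a variance trend and robust variance. The mouse number as a replicate block cannot change the members' median (-0.018), because each number occurs once per group. That fit has fewer residual degrees of freedom and gave 0 called. The numbers were not shown to pair the mice. The median was -0.062 with the re-LCM tag as a term, 0.066 within the re-LCM arrays and -0.133 within the others, and from -0.104 to 0.071 when a mouse or array was left out. The runs without array 1, or array 2, of mouse 2 in both groups were chosen after seeing the data. The cause of the following reversals was not tested. Quantile normalization gave Rpl7 0.0064 and centring on the median 0.0018. The mean of all probe sets gave Rpl7 0.0088, Rpl37a 0.27 and Rps9 0.11, and leaving out x and s probe sets gave Rpl7 0.054 and Rps9 0.61. With 6 separate arrays Rpl37 was 0.0047, Rpl39 -0.086 and Rpl7 0.0013; with the mouse as a random block (correlation -0.54) Rpl37 was 0.12, Rpl39 -0.22, Rpl7 0.0079 and Rpl37a 0.013. The tag as a term gave Rps4l -0.092 and Rpl7 0.015. Within re-LCM arrays Rplp0 was 0.029, Rplp2 0.20, Rps27 0.34, Rpl7 0.032, Rpl10a 0.013, Rpl37a 0.061 and Rps9 0.14; within the others Rpsa was -0.064, Rps4l -0.98, Rps15 -0.12, Rpl37 0.28, Rpl8 -0.049 and Rps10 -0.13. Without array 2 of mouse 2 in both groups Rplp2 was 0.041 and Rpl39 -0.12; without array 1, Rplp0 was 0.11, Rps4l -0.19, Rps27 0.0071, Rpl7 0.026, Rpl10a 0.033, Rps10 -0.019 and Rps9 0.010. Leaving out a mouse or array gave, lowest to highest, Rpl10a -0.082 to 0.050, Rpl37 -0.34 to 0.087, Rpl37a -0.20 to 0.097, Rpl39 -0.38 to 0.50, Rpl7 -0.058 to 0.045, Rpl7l1 -0.28 to 0.17, Rpl8 -0.0072 to 0.12, Rplp0 -0.21 to 0.19, Rplp2 -0.18 to 0.13, Rps10 -0.11 to 0.23, Rps15 -0.023 to 0.57, Rps27 -0.78 to 0.39, Rps3a1 -0.11 to 0.024, Rps4l -0.33 to 0.80, Rps4x -0.14 to 0.0061, Rps9 -0.21 to 0.15 and Rpsa -0.059 to 0.15. Rps27l, Rpl22l1, Rpl7a, Rpl19, Rpl14, Rps19, Rps6, Rpl22 and Rpl27a kept their direction in every alternative run. Some came near 0, as Rpl14 at 0.008 and Rpl27a at -0.009. Some runs, such as the variance trend and the mouse number block, cannot change a difference. The members' median gap between the arrays of mouse 2 stayed negative in both mice in every alternative run for it.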

Other observations

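Among the mitochondrial ribosomal proteins, which are made in the cytosol and build the ribosome of the mitochondrion, Mrpl46 had 303, 368 and 293 in transgenic and 214, 289 and 195 in control mice. All its transgenic arrays lay above all its control arrays, at a difference of 0.49 (SE 0.16, limma adjusted p = 0.999). In that set 4 genes lay wholly higher and 2 wholly lower on the transgenic arrays, 6 of 76 in all, beside 8.07% of all tested genes. Pfdn5, a subunit of the prefoldin chaperone, had 523, 724 and 413 in transgenic and 357, 582 and 352 in control mice, at a difference of 0.41 (SE 0.19), and its groups overlapped. Nol6, a nucleolar protein of early 40S assembly, had 47.0, 49.6 and 93.2 in transgenic and 84.0, 115 and 61.9 in control mice, at -0.57 (SE 0.23), and its groups overlapped.

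The cytoplasmic poly(A)-binding protein gene Pabpc1, itself a TOP mRNA, had 2740, 2786 and 2918 in transgenic and 3162, 3035 and 3085 in control mice. Every transgenic array lay below every control array, at a difference of -0.15 (SE 0.15, limma adjusted p = 0.999). Pabpc1 was 1 of 21 other TOP mRNAs and ribosome partners without overlap, beside 8.07% of all tested genes. Ncl, the gene of nucleolin, had 460, 360 and 343 in transgenic and 423, 554 and 467 in control mice, at -0.21 (SE 0.21), and its groups overlapped. These were named after their values were seen, and none passed the test.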
